A study of Homo sapiens with 6 samples.

Results

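Amino acid transporters are the membrane proteins through which a cell takes up, releases and exchanges the building blocks of protein. The 10 genes described here were chosen by name, as plasma membrane carriers well known in cancer cells: SLC7A11, SLC7A5, SLC7A1, SLC3A2, SLC1A4, SLC1A5, SLC38A1, SLC38A2, SLC43A1 and SLC6A9. Earlier results of these data were known when the genes were chosen. All 10 were among the 23228 gene symbols counted, and all 10 had enough reads to be tested. The study compared MDA-MB-231 cells, a mesenchymal human breast cancer line without hormone receptors, that stably express an shRNA against PELP1 (PELP1-KD) with the same line expressing a non-targeting control shRNA, with 3 RNA-seq replicates in each group. PELP1 is a nuclear coregulator that also takes part in ribosome assembly. Both groups carry a lentiviral shRNA vector, were selected with puromycin and were grown in serum-containing RPMI medium. PELP1-KD cells rest on a single shRNA, and nothing in the labels states that replicates came from separate transductions or cultures, so p-values measure the spread between these samples, which may be technical.

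Transporters of this kind work by a few principles. Heterodimeric exchangers pair a light chain, which carries the substrate, with the heavy chain SLC3A2 (CD98), which brings it to the cell surface. Sodium-coupled carriers load the cell with small neutral amino acids such as glutamine, and the exchangers then trade these for essential amino acids, which in turn sustain mTORC1 activity. When amino acids are short, the kinase GCN2 (EIF2AK4) and the transcription factor ATF4 raise many of these genes, and c-Myc is known to raise several of them in proliferating cells.

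The replicates held from 17304864 to 23132102 reads on genes. PELP1 itself was 57.2, 56.1 and 60.2 CPM (reads on the gene relative to library size, with TMM factors) in the controls and 28.6, 29.9 and 30.3 CPM in PELP1-KD replicates 1, 2 and 3. Its log2 fold change (log2FC) was -0.97 (standard error 0.055, adjusted p = 1.48e-11, edgeR quasi-likelihood test). Control replicate 1 stood somewhat apart. The chi-square of its counts, divided by the degrees of freedom, was 3.87 and 4.11 against the other controls, and 1.47 between those. PELP1-KD replicate 2 stood apart to a lesser degree, with 2.75 and 2.71 against the other PELP1-KD replicates and 1.51 between those. Defining markers of the line were present. The summed level of VIM, CD44, AXL, ZEB1, FN1 and CAV1 was between 5776 and 5849 CPM in controls and between 4899 and 4937 CPM in PELP1-KD cells. The lowest of them, ZEB1, had means of 78.9 CPM in controls and 60.7 CPM in PELP1-KD cells. Of these 6 genes, 5 were lower and FN1 was higher at an adjusted p below 0.05 (edgeR), where 46.9% of all tested genes were called. Of 5 fibroblast markers, DCN was at 0 in every library, while the sum was between 5.29 and 7.13 CPM in controls and between 17.2 and 20.1 CPM in PELP1-KD cells, nearly all of it COL1A1. Of 4 leukocyte markers, PTPRC was at 0 in every library and the sum was between 0.451 and 0.71 CPM in controls and between 0.718 and 0.892 CPM in PELP1-KD cells. The 3 endothelial markers summed to between 0.296 and 0.676 CPM and to between 0.923 and 1.17 CPM. Of 7 luminal or receptor genes that this line is held to lack, the sum was between 126 and 132 CPM in controls and between 129 and 145 CPM in PELP1-KD cells, most of it ERBB2, while ESR1, PGR and CDH1 were at most 0.225 CPM. Their part in the transporter results was not tested.

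In PELP1-KD cells the cationic amino acid carrier SLC7A1, the neutral carrier SLC1A4, the large neutral amino acid exchanger SLC7A5 and the glutamine carrier SLC38A2 had the larger falls, with log2FCs from -0.61 to -0.37. Smaller falls were measured for the heavy chain SLC3A2 and for SLC38A1, while the glutamine exchanger SLC1A5 and the facilitator SLC43A1 rose by 14.2% and 16.3%. The cystine carrier SLC7A11 and the glycine carrier SLC6A9 did not pass the test. In counts, 6 of the 10 genes were lower and 2 were higher at an adjusted p below 0.05 (edgeR quasi-likelihood test, adjusted over all 12796 genes tested). Among all genes tested, 24.2% were called lower and 22.7% higher, so a call in itself was common in this comparison (46.9% in either direction). The median log2FC of the 10 genes was -0.12, with 0.0014 as the median over all tested genes, and the median size of the log2FC, whatever its sign, was 0.20 against 0.17. With libraries scaled by their totals in place of TMM, 5 of the 10 were lower and 3 higher, since SLC3A2 lost its call (adjusted p = 0.130) and SLC7A11 gained one (adjusted p = 0.0100). The log2FC of the 10 genes lay between -0.61 and 0.22, so none reached the 2-fold change that, with an adjusted p below 0.05, 3.24% of all tested genes showed. The ranges of the groups were apart in 8 of the 10 genes, and in 55% of all tested genes.

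**Figure D1:**
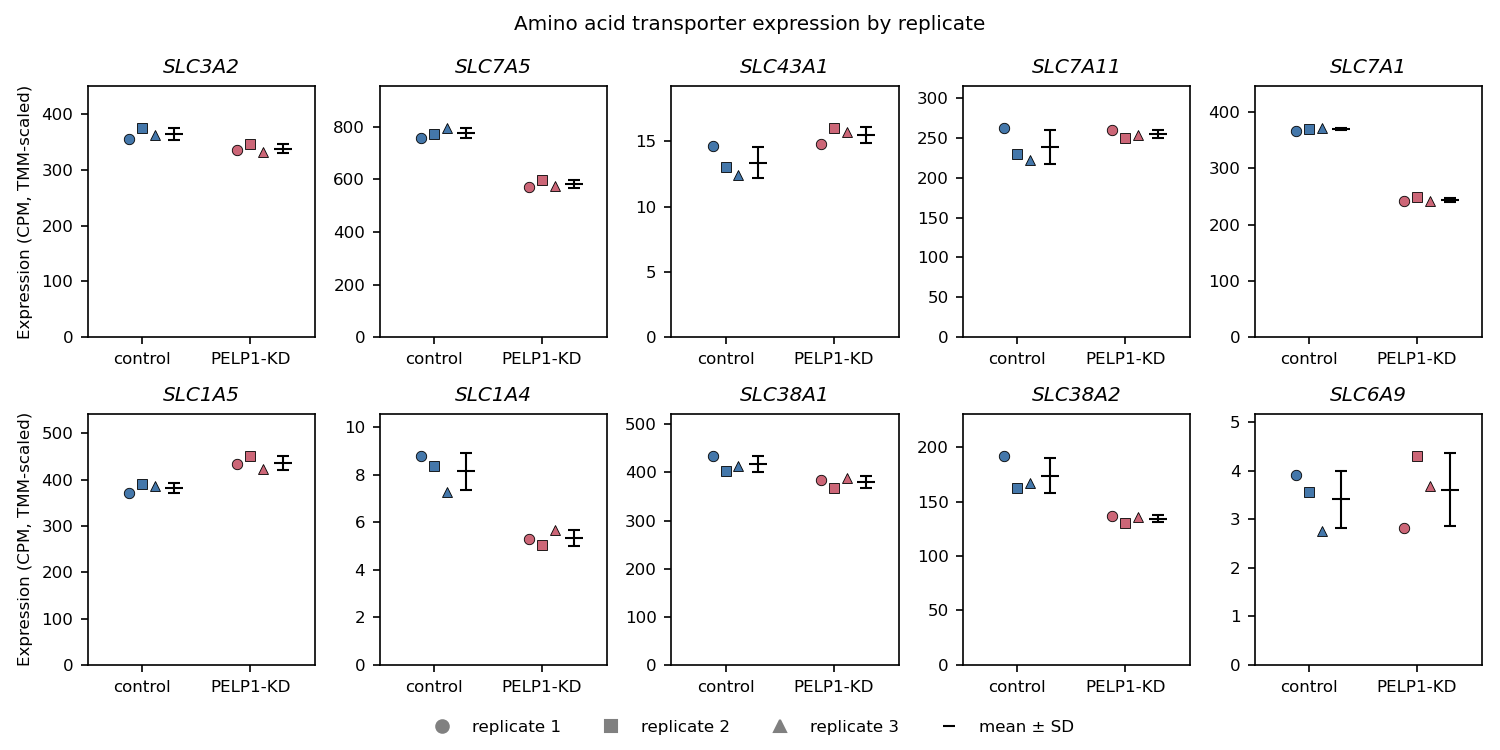
Expression of the 10 transporter genes in CPM (vertical axes from 0, different for each gene) in 3 control and 3 PELP1-KD replicates, with symbols for the replicate number and bars for the mean ± SD. SLC7A1 falls from near 370 to near 244 CPM with very little spread, while the groups of SLC7A11 and SLC6A9 overlap.

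**Figure D2:**
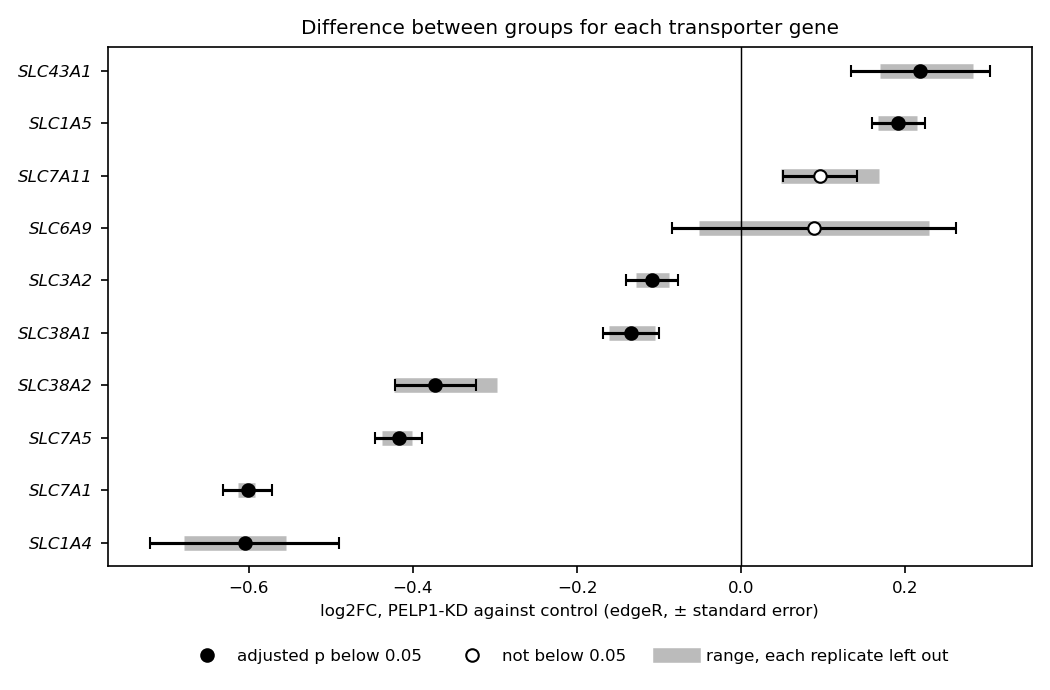
The log2FC of each transporter gene, PELP1-KD against control, with its standard error (black) and the range of the log2FC with each replicate left out in turn (grey bars). Filled circles mark an adjusted p below 0.05, and SLC7A11 and SLC6A9 are open.

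The heavy chain SLC3A2 lies at chr11:62856102-62888875 on the plus strand of GRCh38. Its expression was 355, 376 and 362 CPM in control replicates 1, 2 and 3 and 335, 347 and 332 CPM in PELP1-KD replicates 1, 2 and 3. All PELP1-KD values were below all control values, yet the gap between the nearest replicates of the 2 groups was small beside the range within each group. The log2FC was -0.11 (standard error 0.032, adjusted p = 0.00797, edgeR). The call was lost without control replicate 2 (adjusted p = 0.0680) and without PELP1-KD replicate 3 (adjusted p = 0.0537).

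SLC7A5 (LAT1) is the light chain that exchanges intracellular glutamine for leucine and other large neutral amino acids, and lies at chr16:87830023-87869488 on the minus strand. It was counted at 759, 772 and 795 CPM in the controls and at 571, 598 and 573 CPM in PELP1-KD cells. Every PELP1-KD replicate was well below every control replicate. The log2FC was -0.42 (standard error 0.029, adjusted p = 2.74e-10, edgeR). In percent, SLC7A5 fell by 25.1%. The gene has near-identical pseudogene copies, SLC7A5P1 and SLC7A5P2, with at most 1 and 15 counts in any replicate, and reads that aligned to more than a single place were counted on no gene. The SLC7A5 level is therefore uncertain to the extent of such shared reads, and 271 bases of its exons also lie opposite an antisense gene.

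SLC43A1 (LAT3), at chr11:57484534-57515786 on the minus strand, carries branched-chain amino acids and phenylalanine without a heavy chain. Its level was 14.7, 13.1 and 12.4 CPM in the controls and 14.8, 16.0 and 15.7 CPM in PELP1-KD cells. The lowest PELP1-KD replicate stood only just above control replicate 1. The log2FC was 0.22 (standard error 0.085, adjusted p = 0.0403, edgeR). This call was lost under DESeq2 (adjusted p = 0.105) and without any of control replicates 2 and 3 or PELP1-KD replicates 2 and 3, with adjusted p-values from edgeR of 0.118, 0.157, 0.114 and 0.102.

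SLC7A11 (xCT), at chr4:138164097-138242349 on the minus strand, is the light chain that imports cystine for glutathione synthesis in exchange for glutamate. The controls had 263, 229.9 and 223 CPM and the PELP1-KD replicates 259.7, 249.9 and 254 CPM. Control replicate 1 was the highest of the 6, and the other controls were below all PELP1-KD replicates. The log2FC was 0.10 (95% interval 0.0018 to 0.19 before adjustment, adjusted p = 0.0877, edgeR). The value turned on single libraries, since the log2FC was 0.17 without control replicate 1 (adjusted p = 1.99e-05) and 0.049 without control replicate 3 (adjusted p = 0.413). Part of the SLC7A11 exons, 865 bases, is shared with an antisense gene, SLC7A11-AS1, which has no row in the count tables.

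SLC7A1 (CAT1), at chr13:29509410-29595688 on the minus strand, is the main carrier for arginine and lysine in most cells and needs no heavy chain. It was at 367, 371 and 372 CPM in the controls and at 242, 248 and 241 CPM in PELP1-KD cells. The replicates of each group lay within a few CPM of each other and the groups were far apart, with a coefficient of variation of 0.659% in controls and 1.57% in PELP1-KD cells. The log2FC was -0.60 (standard error 0.03, adjusted p = 1.9e-12, edgeR). In percent, SLC7A1 fell by 34.1%. Leaving out any 1 replicate kept the log2FC between -0.61 and -0.59. By p-value SLC7A1 stood 75th of all tested genes, the first of the 10, and 90.8% of tested genes had a smaller log2FC in size.

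SLC1A5 (ASCT2), at chr19:46774883-46788594 on the minus strand, is a sodium-dependent exchanger of glutamine and other small neutral amino acids. It was at 371, 389.8 and 385 CPM in the controls and at 435, 452 and 422 CPM in PELP1-KD cells. All PELP1-KD replicates were above all controls. The log2FC was 0.19 (standard error 0.032, adjusted p = 5.68e-05, edgeR), and it stayed between 0.17 and 0.21 with each replicate left out. Its exons share 780 bases with an antisense gene that has no row in the count tables.

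SLC1A4 (ASCT1), its close relative at chr2:64988477-65023865 on the plus strand, carries serine, alanine and threonine. Its level was low, at 8.81, 8.36 and 7.27 CPM in the controls and 5.28, 5.06 and 5.69 CPM in PELP1-KD cells, from 103 to 190 counts per replicate. The groups did not overlap. The log2FC was -0.61 (standard error 0.12, adjusted p = 2.22e-04, edgeR). This fall was as large as that of SLC7A1 but, from far fewer reads, known with a wider error.

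SLC38A1 and SLC38A2 (SNAT1 and SNAT2) are sodium-coupled carriers of glutamine and alanine that lie side by side on chromosome 12, at chr12:46183063-46270017 and chr12:46358189-46372867, both on the minus strand. SLC38A2 is the member of the pair best known to be induced when amino acids run short. SLC38A1 was at 435, 403 and 414 CPM in the controls and at 385, 367 and 389 CPM in PELP1-KD cells. The log2FC was -0.13 (standard error 0.034, adjusted p = 0.00253, edgeR). SLC38A2 was at 192, 163 and 167 CPM in the controls and at 136, 130.4 and 136 CPM in PELP1-KD cells. The log2FC was -0.37 (standard error 0.049, adjusted p = 3.28e-06, edgeR). In both genes control replicate 1 was the highest and no PELP1-KD replicate reached any control. Without control replicate 1 the log2FC of SLC38A2 was -0.30.

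SLC6A9 (GLYT1), the sodium- and chloride-coupled glycine carrier, lies at chr1:43991500-44031467 on the minus strand. It had 49 to 92 counts per replicate, which gave 3.90, 3.56 and 2.76 CPM in the controls and 2.82, 4.31 and 3.70 CPM in PELP1-KD cells. The groups overlapped almost fully. The log2FC was 0.09 (95% interval -0.27 to 0.45, adjusted p = 0.70, edgeR), so a change of the size seen for SLC7A5 upwards, but not downwards, lies within the interval. The sign turned without control replicate 3 (-0.035) and without PELP1-KD replicate 2 (-0.051). SLC6A9 shares 404 exon bases with CCDC24 on the opposite strand. As the counting is not stated to use strand, reads within those bases may not be told apart and may have been set aside as ambiguous.

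Control replicate 1 was the highest control for 6 of the 10 genes and the lowest for the other 4. It exceeded the mean of the other controls by 16.0% for SLC7A11, 16.6% for SLC38A2, 15.2% for SLC43A1, 12.8% for SLC1A4, 6.42% for SLC38A1 and 23.4% for SLC6A9, and differed from it by -1.09% for SLC7A1 to -4.37% for SLC1A5 among the 4 where it was lowest. The coefficient of variation of SLC7A11 was 8.93% in controls and 1.94% in PELP1-KD cells, and that of SLC38A2 was 9.20% and 2.43%. For SLC6A9, in contrast, it was 17.2% in controls and 20.8% in PELP1-KD cells.

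Levels were compared between genes as RPKM, that is CPM per kilobase of exon, with the union of all exons in GENCODE as the length. In control cells SLC7A5 ranked first at 163 RPKM ± 3.91 (SD, n = 3), followed by SLC1A5 at 115 ± 3.01, SLC3A2 at 70.4 ± 2.00, SLC7A1 at 48.1 ± 0.317 and SLC38A1 at 41.7 ± 1.61. SLC38A2 at 26.4 RPKM ± 2.42 and SLC7A11 at 24.7 ± 2.21 overlapped and could not be ordered. SLC43A1 at 3.79 RPKM ± 0.330, SLC1A4 at 1.17 ± 0.115 and SLC6A9 at 0.661 ± 0.114 were far lower. The order differed in PELP1-KD cells. SLC1A5 at 131 RPKM ± 4.47 now stood above SLC7A5 at 122 ± 3.18, with ranges of 127 to 136 and of 120.3 to 126 RPKM that did not overlap. SLC38A1 at 38.0 RPKM ± 1.19 stood above SLC7A1 at 31.7 ± 0.499, and SLC7A11 at 26.4 ± 0.511 above SLC38A2 at 20.3 ± 0.493, again without overlap. SLC1A4 at 0.771 RPKM ± 0.0461 and SLC6A9 at 0.700 ± 0.145 overlapped in PELP1-KD cells. Orders between genes depend on the length assigned, which counts exons that these cells may not use.

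**Figure D3:**
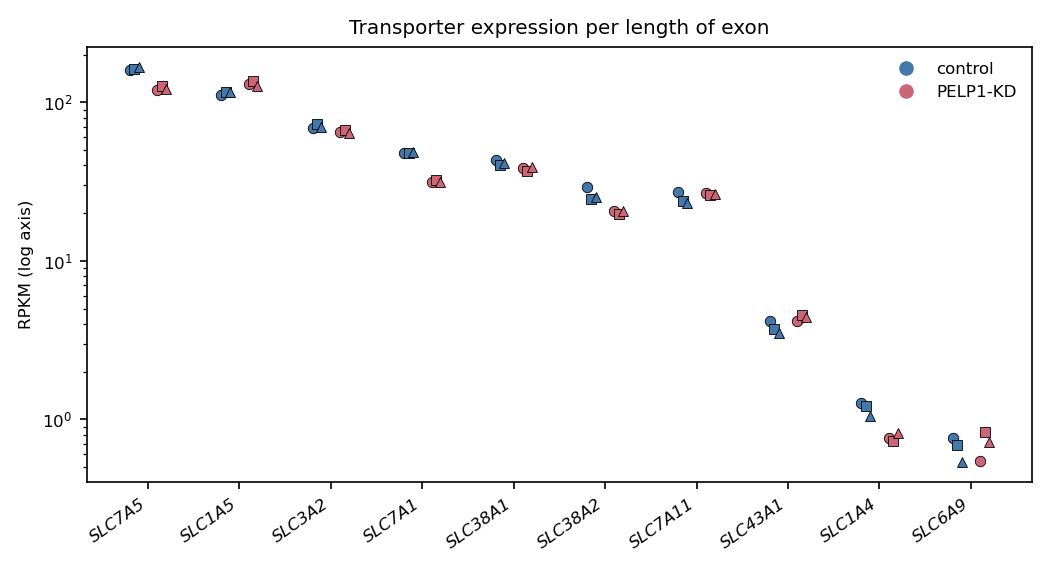
RPKM of the 10 transporter genes on a log axis, in the order of their control means, with blue for control and red for PELP1-KD replicates and the same replicate symbols as in the plot of CPM. The 7 genes from SLC7A5 to SLC7A11 lie between 19 and 168 RPKM and the other 3 below 5 RPKM.

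Ratios between genes in the same replicate do not depend on how libraries are scaled. They were compared for 5 pairs by two-sided exact permutation tests over the 6 samples, for which 0.1 is the smallest p that 3 against 3 allow, so no pair could reach 0.05. The ratio of SLC7A5 to its heavy chain SLC3A2 was 2.33, 2.24 and 2.40 in the controls and 1.86, 1.88 and 1.88 in PELP1-KD cells, a change of -19.3% without overlap (exact p = 0.1, adjusted over 5 ratios 0.125). The ratio of SLC7A11 to SLC3A2 was 0.397, 0.328 and 0.330 in the controls and 0.416, 0.387 and 0.411 in PELP1-KD cells, 15.4% higher, and the ranges overlapped (exact p = 0.2, adjusted 0.2). So in these samples the light chain for large neutral amino acids fell relative to SLC3A2. In the ratio of the cystine light chain to SLC3A2, control replicate 1 lay among the PELP1-KD replicates.

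The ratio of SLC1A4 to SLC1A5 was 0.0114, 0.0103 and 0.00905 in the controls and 0.00584, 0.00538 and 0.00647 in PELP1-KD cells, a change of -42.4%. The ratio of SLC38A1 to SLC38A2 was 1.49, 1.64 and 1.63 in the controls and 1.86, 1.85 and 1.89 in PELP1-KD cells, 17.8% higher. The ratio of SLC7A1 to SLC7A5 was 0.299, 0.296 and 0.288 in the controls and 0.261, 0.256 and 0.260 in PELP1-KD cells, a log2 difference of -0.18. In these 3 pairs the groups did not overlap (exact p = 0.1, the smallest possible, and adjusted 0.125 for each). Paralogs of the same family thus moved by unequal amounts in these samples, and SLC1A4 and SLC1A5 moved in opposite directions. The permutation test could not place any of these 3 ratios below 0.05.

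**Figure D4:**
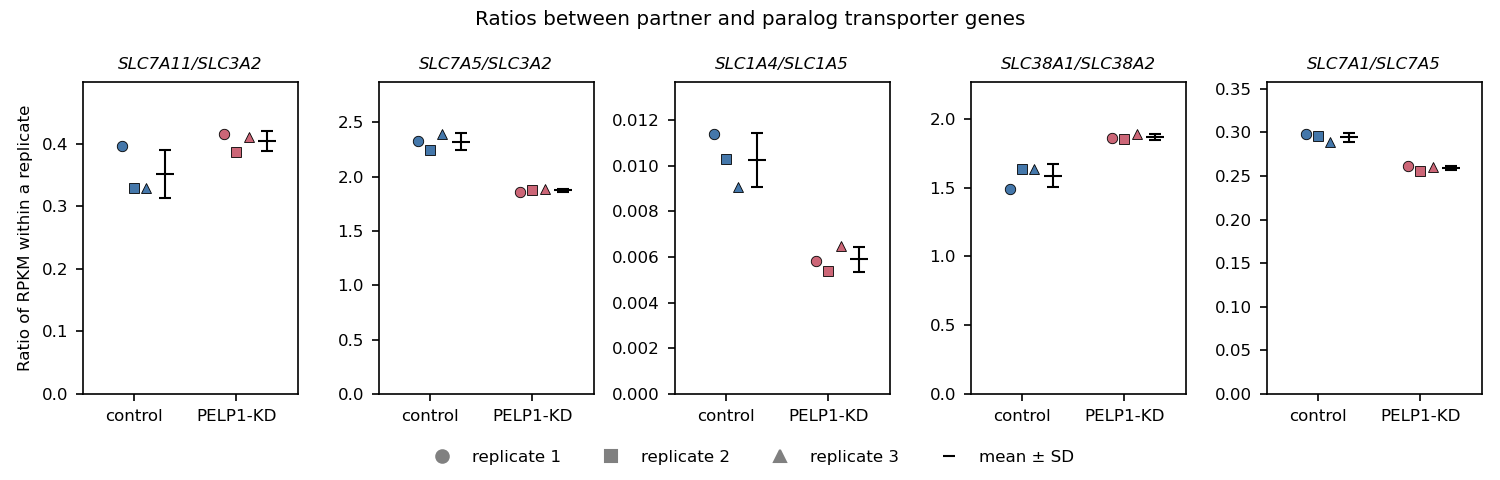
Ratios of RPKM between 5 pairs of transporter genes within each replicate (vertical axes from 0, different for each pair), with bars for the mean ± SD of the 3 replicates. The groups are apart in 4 pairs and overlap for SLC7A11/SLC3A2, where control replicate 1 lies at 0.397.

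Promoter sequences from RefSeq (GRCh38.p14, 250 bases before to 50 after each start) were on hand for 9 of the 10 genes, with 16 starts in all. SLC7A11 had none. Each was searched on both strands for the letters of the ATF4 composite element (TGATGNAA), of the antioxidant response element bound by NRF2 (TGACNNNGC) and of the E-box bound by c-Myc (CACGTG). The first was found in 5 of the 9 genes, where 4.46% of the 27305 genes with promoters hold it in at least 1. The second was found in 4 genes and in 16.1% of all, and the third in 3 genes and in 8.77% of all. Counted per promoter, these were 5, 4 and 3 of 16, against 3.62%, 13.3% and 7.26% of 35116 promoters of the same length. No 2 matches shared a base. A match is a description of the letters and not of a bound site. The windows below are shown because they sit in genes that differed between the groups, with the matched letters in capitals and the sequence read along the gene's own strand. Positions count from the start as base 1, with the base before it as -1.

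Except for SLC7A1, each match to the ATF4 element lay at a start downstream of another start of the same gene. With the letters of the ATF4 element, the first 4 from genes that were lower and the last from SLC1A5, which was higher:
SLC7A1, from position 8, chr13:29595665-29595690, minus strand: gcgcactgcTGATGAAAcctggcgcc
SLC38A1, from position -4, chr12:46266504-46266529, minus strand: agacccgaaTGATGAAAagggatcag
SLC3A2, from position 38, element on the opposite strand, chr11:62881727-62881748, plus strand: caggactccTTACATCAgctcc
SLC1A4, from position -7 of a second start, element on the opposite strand, chr2:64989383-64989408, plus strand: ggctcccgtTTGCATCAtctccagcc
SLC1A5, from position -97, chr19:46784895-46784920, minus strand: ggaagtggcTGATGCAAgctgtccag

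With the letters of the E-box, in a gene that was lower and in both genes that were higher:
SLC7A5, from position -130, chr16:87869623-87869646, minus strand: cggacgacgCACGTGctccgagct
SLC1A5, from position -50 of a second start, chr19:46787329-46787352, minus strand: gggagtggtCACGTGgacaggacg
SLC43A1, from position -112, chr11:57515800-57515823, minus strand: cgggcgagtCACGTGcgcgtgaaa

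With the letters of the antioxidant response element, which SLC7A5 (lower) and SLC1A5 (higher) also hold in windows left out here:
SLC7A1, from position -85, chr13:29595756-29595782, minus strand: gcccggcggTGACGCGGCcgagcgggc
SLC3A2, from position -37, chr11:62881653-62881679, plus strand: gagggtgggTGACTCAGCgtcctcctt

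The ATF4 letters thus stood in genes that were lower and in a gene that was higher, and so did the letters of the antioxidant response element. The E-box letters likewise stood in genes of both directions. SLC38A2, lower in PELP1-KD cells, and SLC6A9 held none of the 3 in their windows, which says nothing of sequence outside them.

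Other amino acid carriers of the plasma membrane and lysosome were taken as a list of 41 genes, of which 17 were tested. The other 24 had at most 7 counts in any replicate, and 13 of them had no read at all. Of the 17, 5 were lower and 7 higher at an adjusted p below 0.05, and the median log2FC was 0.08. These 70.6% called stood beside 46.9% of all tested genes. The second cationic carrier, SLC7A2, fell like SLC7A1, from 55.2, 50.0 and 49.3 CPM to 30.6, 29.8 and 33.1 CPM, a log2FC of -0.72 (standard error 0.061, adjusted p = 5.76e-09, edgeR). The summed level of SLC7A1 and SLC7A2 was 422, 421 and 421 CPM in controls and 272, 278 and 274 CPM in PELP1-KD cells, a change of -34.7%. SLC43A2, the close relative of SLC43A1, rose with it, from 15.1, 15.2 and 16.7 CPM to 25.3, 24.7 and 21.4 CPM (log2FC 0.60, adjusted p = 3.51e-06). SLC43A1, SLC43A2 and SLC7A5 together summed to 169 RPKM ± 3.68 (SD, n = 3) in controls and to 129 RPKM ± 3.37 in PELP1-KD cells, so the rise of the facilitators was small beside the fall of the exchanger.

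Among the glutamate carriers, SLC1A3 rose from 5.38, 5.10 and 4.96 CPM to 11.6, 11.8 and 11.4 CPM, a log2FC of 1.17 (standard error 0.10, adjusted p = 9e-09, edgeR), while SLC1A1 fell from 1.06, 1.41 and 0.788 CPM to 0.410, 0.469 and 0.425 CPM, a log2FC of -1.34 (standard error 0.32, adjusted p = 0.00192). SLC1A1 rested on few reads, with 18, 32 and 14 counts in controls and 8, 10 and 10 in PELP1-KD cells. SLC38A4, a relative of SLC38A1 and SLC38A2, fell as they did, with a log2FC of -1.03 (adjusted p = 5.05e-04) at a level of 2.10 CPM ± 0.177 (SD, n = 3) in controls. SLC16A10, which carries aromatic amino acids, had a log2FC of 0.55 (adjusted p = 0.0292) with overlapping groups. Without control replicate 3, 4 of the 17 carriers were higher in place of 7.

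**Figure D5:**
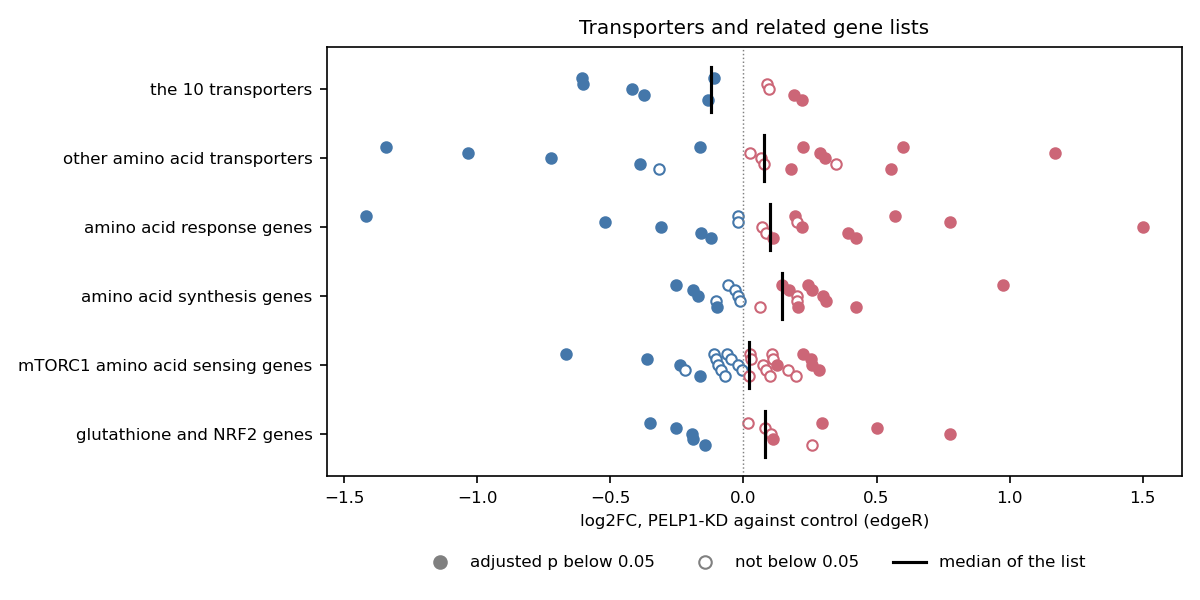
The log2FC of each tested gene in 6 lists, PELP1-KD against control, with filled circles for an adjusted p below 0.05 and a vertical bar at the median of the list (height within a row has no meaning). The median lies at -0.12 for the 10 transporters and above 0 in the other 5 lists.

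The genes that respond to a shortage of amino acids were taken as a list of 19, of which 18 were tested, with 5 lower and 8 higher, or 72.2% called beside 46.9% of all tested genes. ATF4 itself was at 189, 184 and 187 CPM in controls and at 193, 202 and 192 CPM in PELP1-KD cells, with a log2FC of 0.07 (adjusted p = 0.113), and DDIT3 had a log2FC of -0.02 (adjusted p = 0.832). Of its known targets, ASNS, the asparagine synthetase, rose by a log2FC of 0.42 (adjusted p = 6.62e-07), CHAC1, which degrades glutathione, by 0.78 (adjusted p = 2.04e-04), STC2 from 1.42, 0.924 and 1.13 CPM to 2.62, 3.47 and 3.53 CPM (adjusted p = 7.43e-06), ATF3 by 0.57 (adjusted p = 7.29e-05) and TRIB3 by 0.22 (adjusted p = 0.00918). In the other direction, DDIT4, an inhibitor of mTORC1, had a log2FC of -1.42 (adjusted p = 2.35e-13), VLDLR of -0.52 (adjusted p = 8.37e-04) and CEBPG, a partner of ATF4, of -0.31 (adjusted p = 2.95e-05). The list thus held genes that moved each way, as the transporters did, but leaned in the opposite direction. Its median log2FC was 0.098, against -0.12 for the 10 transporters, of which 6 were lower and 2 higher. With library totals 3 were lower and 10 higher, and without control replicate 2, 3 were lower and 9 higher. MYC RNA was at 203, 210.5 and 210.4 CPM in controls and at 219, 229 and 216 CPM in PELP1-KD cells, with a log2FC of 0.09 (adjusted p = 0.0376). The paper, in contrast, reported less c-Myc protein by western blot in PELP1-KD cells that were serum starved and then stimulated. It also reported lower c-Myc target gene sets in its RNA-seq. The difference between RNA and protein was not tested.

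Of 25 enzymes that make or interconvert amino acids, 21 were tested, with 4 lower and 9 higher, or 61.9% called beside 46.9% of all tested genes. PHGDH, the first enzyme of serine synthesis, was near 1 CPM in controls and at 1.99 CPM ± 0.212 (SD, n = 3) with PELP1 lowered (log2FC 0.98, adjusted p = 0.00139), while PSAT1, the next enzyme, had 176 CPM ± 3.26 and 156 CPM ± 10.2 (log2FC -0.17, adjusted p = 0.0025). GLUD1 and GLUL, which turn over glutamate, had a log2FC of -0.25 (adjusted p = 3.92e-05) and -0.19 (adjusted p = 9.59e-04).

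Of 31 genes through which mTORC1 senses amino acids, 29 were tested, and 4 were lower and 5 higher, with a median log2FC of 0.02. These 31.0% called were below the 46.9% of all tested genes. With library totals, 4 were lower and 8 higher. RRAGD, a Rag GTPase, had a log2FC of 0.28 (adjusted p = 0.00116), and its regulator FLCN had 0.26 (adjusted p = 1.64e-04). Of the partners of FLCN, FNIP2 rose by 0.26 (adjusted p = 0.00717) and FNIP1 had -0.36 (adjusted p = 1.4e-05). C12orf66 of the KICSTOR complex, at -0.67 (adjusted p = 0.0102), and the Ragulator subunit LAMTOR3, at -0.24 (adjusted p = 0.0104), were lower. SLC38A9, the lysosomal arginine sensor that is also counted among the other carriers, rose by 0.22 (adjusted p = 0.00996).

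Cystine brought in by SLC7A11 feeds glutathione synthesis, and of 13 genes of glutathione use and its control by NRF2, all 13 were tested, with 5 lower and 4 higher, or 69.2% called beside 46.9% of all tested genes. GCLM, a subunit of the rate-limiting enzyme, had a log2FC of -0.35 (adjusted p = 9.94e-06), NQO1 of -0.25 (adjusted p = 5.66e-07) and KEAP1, which holds NRF2 back, of -0.19 (adjusted p = 3.7e-04). NFE2L2, the gene of NRF2, was at 217, 206 and 209 CPM in controls and at 191, 179 and 185 CPM in PELP1-KD cells (log2FC -0.19, adjusted p = 2.2e-04). CHAC1, also counted among the response genes, rose by 0.78 (adjusted p = 2.04e-04, edgeR), HMOX1 by 0.50 (adjusted p = 1.62e-06) and SRXN1 by 0.30 (adjusted p = 3.44e-07). SLC7A11, itself a well known NRF2 target, lay between these at 0.10.

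Summed over all 10 transporters, the level was 2769, 2729 and 2742 CPM in control replicates 1, 2 and 3 and 2386, 2418 and 2373 CPM in PELP1-KD replicates 1, 2 and 3, a change of -12.9%, with SLC7A5 as the gene with the most reads in every replicate. The 4 light chains detected that pair with SLC3A2 are SLC7A5, SLC7A6, SLC7A7 and SLC7A11. They summed to 202 RPKM ± 1.98 (SD, n = 3) in controls and to 161 RPKM ± 2.91 in PELP1-KD cells. This was a change of -20.2% (-16.9% in CPM), beside -7.28% for SLC3A2 by its fitted log2FC. The fall of the sum was that of SLC7A5, with means of 163 RPKM in controls and 122 RPKM in PELP1-KD cells. In the same order, SLC7A6 had 13.8 and 12.3 RPKM, SLC7A7 0.15 and 0.19, and SLC7A11 24.7 and 26.4. SLC1A4 and SLC1A5 together summed to 390.1 CPM ± 9.60 in controls and 442 CPM ± 14.6 in PELP1-KD, 13.2% higher, because SLC1A5 held nearly all their reads.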

How the data were processed

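RNA-seq was done on 3 control and 3 PELP1-KD replicates of MDA-MB-231. The authors deposited raw counts of reads per gene symbol, without normalization and per replicate. The submitters' processing notes name bcl2fastq, TopHat2, SAMtools, HTSeq and the build hg19. Versions, annotation and strand setting are not given in the sources used here. Of each file's total, 32.5% to 32.9% were reads with several alignments, 7.64% to 8.19% lay on no gene and 0.657% to 0.688% were ambiguous. These closing totals were left out.

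Counts were tested in R 4.3.3 with edgeR 4.0.16 (filterByExpr with a minimum of 10, TMM, quasi-likelihood test, Benjamini-Hochberg adjustment over 12796 genes). Standard errors were obtained by dividing the log2FC by the root of F. DESeq2 1.42.0, the tool of the study, and voom in limma 3.58.1 were alternatives, beside other scalings, filters, the replicate block and each replicate left out. A floor of 3 counts equals 0.127 to 0.177 CPM and covers counting error only, since reads carried no molecular identifiers. Lengths and gene coordinates come from GENCODE release 29 on GRCh38, not from the count tables. In simulated counts over 12708 genes with the depths of these libraries, 83.8% of 99 genes changed by a log2FC of 0.5, 100 of 100 changed by 1.5 and 5 of 12509 unchanged genes were called. The simulation gave every gene the same spread beyond counting error, changed few genes and set no replicate apart. It therefore checks the procedure and does not give the error rate of these data.

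Named genes are the 10 transporters, PELP1, MYC, ATF4, DDIT3, TRIB3, ASNS and NFE2L2, the 3 largest called changes in each direction in each other list, overlapping genes and marker genes. Some genes that this rule names are not reported here. SLC38A9, SLC7A6 and SLC7A7 were named after their values were seen. The members and lists were chosen with earlier results of these data known. Genes that stand in more than a single list were counted in each. ASNS and CTH are in the response and synthesis lists, and SESN2 in the response and sensing lists. CHAC1 is in the response and glutathione lists, and SLC38A9 in the lists of other carriers and of sensing genes. No sample was left out of the comparison. Protein sequences were not used here.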

Additional observations from a re-analysis of the deposited data

How the results depend on the processing

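Across 13 alternatives each, SLC7A5, SLC7A1, SLC1A4, SLC1A5, SLC38A1, SLC38A2 and PELP1 kept their direction and their call in all 13, with PELP1 between -0.99 and -0.92. SLC7A11 passed the test with library totals, without a filter on low counts, with the replicate block and without control replicate 1, and SLC3A2 and SLC43A1 each lost their call as given above. SLC6A9, never called, changed sign without control replicate 3 (-0.035) and without PELP1-KD replicate 2 (-0.051), and ranged up to 0.23. Of the 10 transporters, 1 was higher under DESeq2 in place of 2, and between 1 and 3 were higher and between 5 and 6 lower with a replicate left out (1 higher without control replicate 2 or 3 or PELP1-KD replicate 2 or 3). With a replicate left out, between 4 and 7 other carriers were higher and between 3 and 5 response genes lower. With library totals, which moved the median log2FC of all genes to 0.051, 3 response genes were lower in place of 5 and 8 sensing genes higher in place of 5. Same-numbered replicates deviated together at correlations of 0.039, 0.065 and -0.078. With 3 replicates in each group, these values cannot decide whether a control and a PELP1-KD sample of equal number were handled together. The labels do not state it either. A replicate block gave 6475 calls over all genes in place of 6007, SLC7A11 had a log2FC of 0.10 (adjusted p = 0.0157), and of the 10 transporters 6 were lower and 3 higher. Other lists under the block had 6 and 7 carriers, 5 and 8 response genes, 4 and 9 enzymes, 6 and 5 sensing genes and 5 and 4 glutathione genes lower and higher. For the ratios the paired difference equals the unpaired one by construction, at 0.21 for SLC7A11/SLC3A2. The cause of these shifts was not tested. Among the 10 transporters, depth limits SLC6A9 and SLC1A4 most, with under 200 counts per replicate.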
